A study of Mus musculus with 2 samples.

Results

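The vascular endothelial growth factor (VEGF) family and its receptors were examined in mammary tumours grown from 4T1 cells with or without a guide RNA against Kindlin-2. The set was fixed by name and held 9 of the 32285 genes in the matrix: the ligands Vegfa, Vegfb, Vegfc and Pgf, the receptors Kdr and Flt1, the co-receptor Nrp1, and the angiopoietin pair of Angpt2 and its receptor Tek. VEGF ligands are secreted proteins that bind receptor tyrosine kinases on endothelial cells and drive the sprouting of new vessels. Vegfa is the main ligand of this kind, is induced by low oxygen, and signals chiefly through Kdr (VEGFR2), while Flt1 (VEGFR1) binds Vegfa, Vegfb and Pgf and is carried by monocytes and macrophages as well as by endothelium. Vegfc acts mainly on lymphatic vessels, Nrp1 assists VEGF and semaphorin signalling, and Angpt2 modulates the endothelial receptor Tek (TIE2).

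The K2-KO library came from tumours of 4T1 cells that carried a guide RNA against K2 (Kindlin-2, gene Fermt2), and the control library from tumours of 4T1 cells with a control guide, genotype WT. 4T1 is a mouse line of triple-negative breast cancer, and both kinds of cells were grown in mammary fat pads of BALB/c female mice, whose stromal and immune cells were not edited. After a digestion of 45 min, viable cells were separated by flow cytometry on the presence or absence of mCherry. The labels do not give the sorted fraction loaded, the mix of fractions, the number of tumours pooled, the age of the mice or whether the K2-KO cells were 1 clone, so class sizes can be set by the sort.

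There was 1 library per group, so no test between groups was possible and no p-value is given. After filtering, 6761 K2-KO and 7530 control barcodes remained, with median depths of 15987 and 22213 UMIs (distinct RNA molecules counted). Levels are UMIs of a gene per 1000000 UMIs of its class (CPM), and all intervals are 95% intervals for counting error only, which do not cover differences between tumours. RNA was counted at transcript 3' ends, so levels of different genes are not corrected for length and need not be. A barcode was placed in a class when exactly 1 of the gate genes Epcam (tumour epithelium), C1qa (macrophages), S100a8 (neutrophils), Col1a1 (fibroblasts) or Pecam1 (endothelium, with no UMI of the leukocyte gene Ptprc) passed. Those classes held 1927, 1155, 231, 103 and 32 K2-KO barcodes and 2810, 1429, 532, 110 and 52 control barcodes. Barcodes that passed none were sorted further by secondary gates, among them Ccr2 (monocytes), Ncr1 (NK cells) and Cd3e (T cells), and 1485 K2-KO and 1682 control barcodes passed no gate at all. Barcodes shared by sequence between the libraries numbered 13.

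The gates matched their fixed markers, with limits. The Epcam class carried 4546 CPM in K2-KO and 5138 CPM in control summed over 6 epithelial markers, but also 180 and 23.4 CPM of 6 mammary gland markers. In the Pecam1 class, 21 of 32 K2-KO barcodes and 38 of 52 control barcodes had a UMI of the endothelial cadherin Cdh5. The barcodes without it held no UMI of Kdr, Flt1, Tek or Angpt2 in either library. In the Epcam class Fermt2 itself stood at 17.2 CPM in K2-KO (16.4 to 18.1) and 38.2 CPM in control (37.1 to 39.3), a log2 ratio of -1.15. RNA counted at the 3' end does not read the cut made by a guide, so this value is not a check of the knockout.

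The sequences before the start sites of the 4 VEGF ligands are shown because the ligands parted in their levels: Vegfa and Pgf were lower in K2-KO Epcam barcodes, whereas Vegfb and Vegfc were slightly higher. Each window is the 250 bases before a RefSeq start in GRCm38.p6, 5' to 3' on the gene's strand, with GC boxes (GGGCGG on either strand) in capitals.
Vegfa (chr17:46032378-46032627, - strand): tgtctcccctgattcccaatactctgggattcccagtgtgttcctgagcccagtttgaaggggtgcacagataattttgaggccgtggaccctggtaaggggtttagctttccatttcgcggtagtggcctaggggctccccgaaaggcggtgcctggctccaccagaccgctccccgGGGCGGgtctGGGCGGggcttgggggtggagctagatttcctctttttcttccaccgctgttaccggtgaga
Pgf (chr12:85177314-85177563, - strand): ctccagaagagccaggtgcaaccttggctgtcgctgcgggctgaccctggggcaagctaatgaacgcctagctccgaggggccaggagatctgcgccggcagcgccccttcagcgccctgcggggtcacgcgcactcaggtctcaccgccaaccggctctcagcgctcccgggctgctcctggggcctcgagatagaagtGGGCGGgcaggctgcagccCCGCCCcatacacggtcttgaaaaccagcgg
Vegfb (chr19:6987652-6987901, - strand): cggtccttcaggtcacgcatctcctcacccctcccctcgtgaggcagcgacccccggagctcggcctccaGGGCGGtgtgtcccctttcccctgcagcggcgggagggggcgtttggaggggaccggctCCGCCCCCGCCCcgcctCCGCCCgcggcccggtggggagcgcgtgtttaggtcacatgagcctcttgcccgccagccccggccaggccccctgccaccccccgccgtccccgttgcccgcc
Vegfc (chr8:54077282-54077531, + strand): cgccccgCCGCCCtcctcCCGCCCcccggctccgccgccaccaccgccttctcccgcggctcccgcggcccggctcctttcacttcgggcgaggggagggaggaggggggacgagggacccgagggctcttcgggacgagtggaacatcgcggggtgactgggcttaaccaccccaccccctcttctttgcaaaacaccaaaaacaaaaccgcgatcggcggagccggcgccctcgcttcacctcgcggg
The windows of Vegfa, Pgf and Vegfc each held 2 GC boxes and that of Vegfb held 4. Vegfa and Pgf each had a second, internal start, whose windows are not shown. These held 1 GC box for Vegfa and 0 for Pgf. GGGCGG occurred in 32.7% of 32851 windows of this length. The core of the hypoxia response element, ACGTG on either strand, was in none of the 4 windows shown, against 16.6% of all windows. It was found 1 time in the window before the internal Vegfa start. The AP-1 motif TGANTCA (6.75% of windows) and the TEAD motif CATTCC (12.6% of windows) were in none of the 4 windows either. The windows cover only the bases next to the start, and these letters say nothing of binding by any factor. In GENCODE M21 (GRCm38) Vegfa spans chr17:46016993-46032369, Pgf chr12:85166635-85177790, Vegfb chr19:6982473-6987651 and Vegfc chr8:54077606-54187096. The receptor genes Kdr and Flt1 lie at chr5:75932827-75978458 and chr5:147561604-147726011, Nrp1 at chr8:128358604-128503363 and Tek at chr4:94739289-94874976. RefSeq windows were matched for 8 of the 9 genes, and Angpt2 had no entry.

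Vegfa, the main ligand, was lower in K2-KO tumour cells. In the Epcam class it stood at 16.6 CPM in K2-KO (15.7 to 17.4, 1580 UMIs) and 54.8 CPM in control (53.5 to 56.2, 6606 UMIs). The K2-KO tumour level was 3.31-fold lower, a log2 ratio of -1.73 (-1.81 to -1.65), and the intervals did not meet. Per barcode this was 0.820 UMIs in K2-KO and 2.35 in control. A Vegfa UMI was found in 30.7% of K2-KO and 60.4% of control Epcam barcodes, whose median depths were 40884 and 36791 UMIs. After thinning every barcode to 1000 UMIs, the shares were 1.77% in K2-KO (1.23 to 2.46) and 5.95% in control (5.10 to 6.89), with 1 K2-KO and 4 control barcodes left out as too shallow. T cells, which should hold little Vegfa, gave thinned shares of 0.469% in K2-KO and 0.794% in control at median depths of 8157 and 8037 UMIs. Their Vegfa level was 7.43 CPM in K2-KO and 5.72 CPM in control, so the K2-KO tumour level lay above the T cell level in its own library.

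Vegfa was also lower in K2-KO in most subsets of the tumour cells. Without the 86 K2-KO and 24 control barcodes that passed a mammary gland gate, Vegfa stood at 14.8 and 54.8 CPM (log2 ratio -1.89). The gland-gated barcodes themselves held 67.9 CPM in K2-KO and 58.0 CPM in control. In barcodes with no UMI of the proliferation gene Top2a the levels were 24.8 CPM in K2-KO and 68.1 CPM in control (log2 ratio -1.46). Barcodes that passed no gate but carried the epithelial keratin Krt18 numbered 617 in K2-KO and 1081 in control, and held 12.2 and 62.6 CPM (log2 ratio -2.36).

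Macrophages and monocytes held the highest Vegfa levels, and these summed levels lay close together in the libraries. In the C1qa class Vegfa stood at 242 CPM in K2-KO (235 to 249) and 250.2 CPM in control (244 to 256), a log2 ratio of -0.05 (-0.10 to 0.01). The share of C1qa barcodes with a Vegfa UMI was nevertheless lower in K2-KO, at 57.1% against 74.7% in control. After thinning as for the Epcam class, the shares were 15.6% in K2-KO (13.5 to 17.8) and 20.5% in control (18.4 to 22.7). These intervals did not meet, with 50 K2-KO and 29 control barcodes left out as too shallow. The Ccr2-gated monocytes held 257 CPM in K2-KO (245 to 270.1) and 284 CPM in control (263 to 306), a log2 ratio of -0.14 (-0.27 to -0.01). In each library the Ccr2 class ranked first and the C1qa class second, with overlapping intervals in K2-KO and not in control. Monocyte markers moved with this class: their summed level over 4 genes in C1qa barcodes was 531 CPM in K2-KO and 225 CPM in control, none of the 4 at 0, and their part in the Vegfa value was not tested. Among C1qa barcodes with no Ccr2 UMI, Vegfa stood at 223 CPM in K2-KO and 257 CPM in control (log2 ratio -0.20, -0.32 to -0.08).

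In the neutrophil class the direction of Vegfa was not stable. The S100a8 class gave 191 CPM in K2-KO (164 to 221) and 137 CPM in control (120 to 155), but 1 K2-KO barcode held 19.0% of that library's 179 UMIs. Macrophage markers stood higher in the same class, at 1800 CPM in K2-KO and 713 CPM in control over 7 genes, none at 0, and their part was not tested. In the 188 K2-KO and 463 control barcodes with no UMI of the macrophage receptor Csf1r, Vegfa stood at 35.0 CPM in K2-KO and 91.1 CPM in control, a log2 ratio of -1.38 (-2.12 to -0.71), opposite to the whole class. In the barcodes without Csf1r epithelial markers summed to 118 CPM in K2-KO and 516 CPM in control, and their part was not tested. The 43 K2-KO and 69 control barcodes with Csf1r held 469 and 337 CPM of Vegfa.

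Fibroblasts held 150 CPM of Vegfa in K2-KO (138 to 162) and 219 CPM in control (203 to 236), a log2 ratio of -0.55 (-0.71 to -0.39). Within that class pericyte markers summed to 113 CPM in K2-KO and 335 CPM in control, and epithelial markers to 222 and 62.0 CPM. The 6 gland markers summed to 1310 and 2116 CPM, but 3 of them in K2-KO and 4 in control were at 0. That sum therefore rests on part of the list and does not show gland cells. The part of these markers in the Vegfa value was not tested. NK cells held 88.8 CPM in K2-KO (78.7 to 99.8) and 84.0 CPM in control (64.6 to 107). The Pecam1 class held only 26 Vegfa UMIs in K2-KO and 9 in control, of which 24 and 6 lay in barcodes without Cdh5. In those barcodes macrophage markers summed to 1268 CPM in K2-KO and 259 CPM in control.

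**Figure D1:**
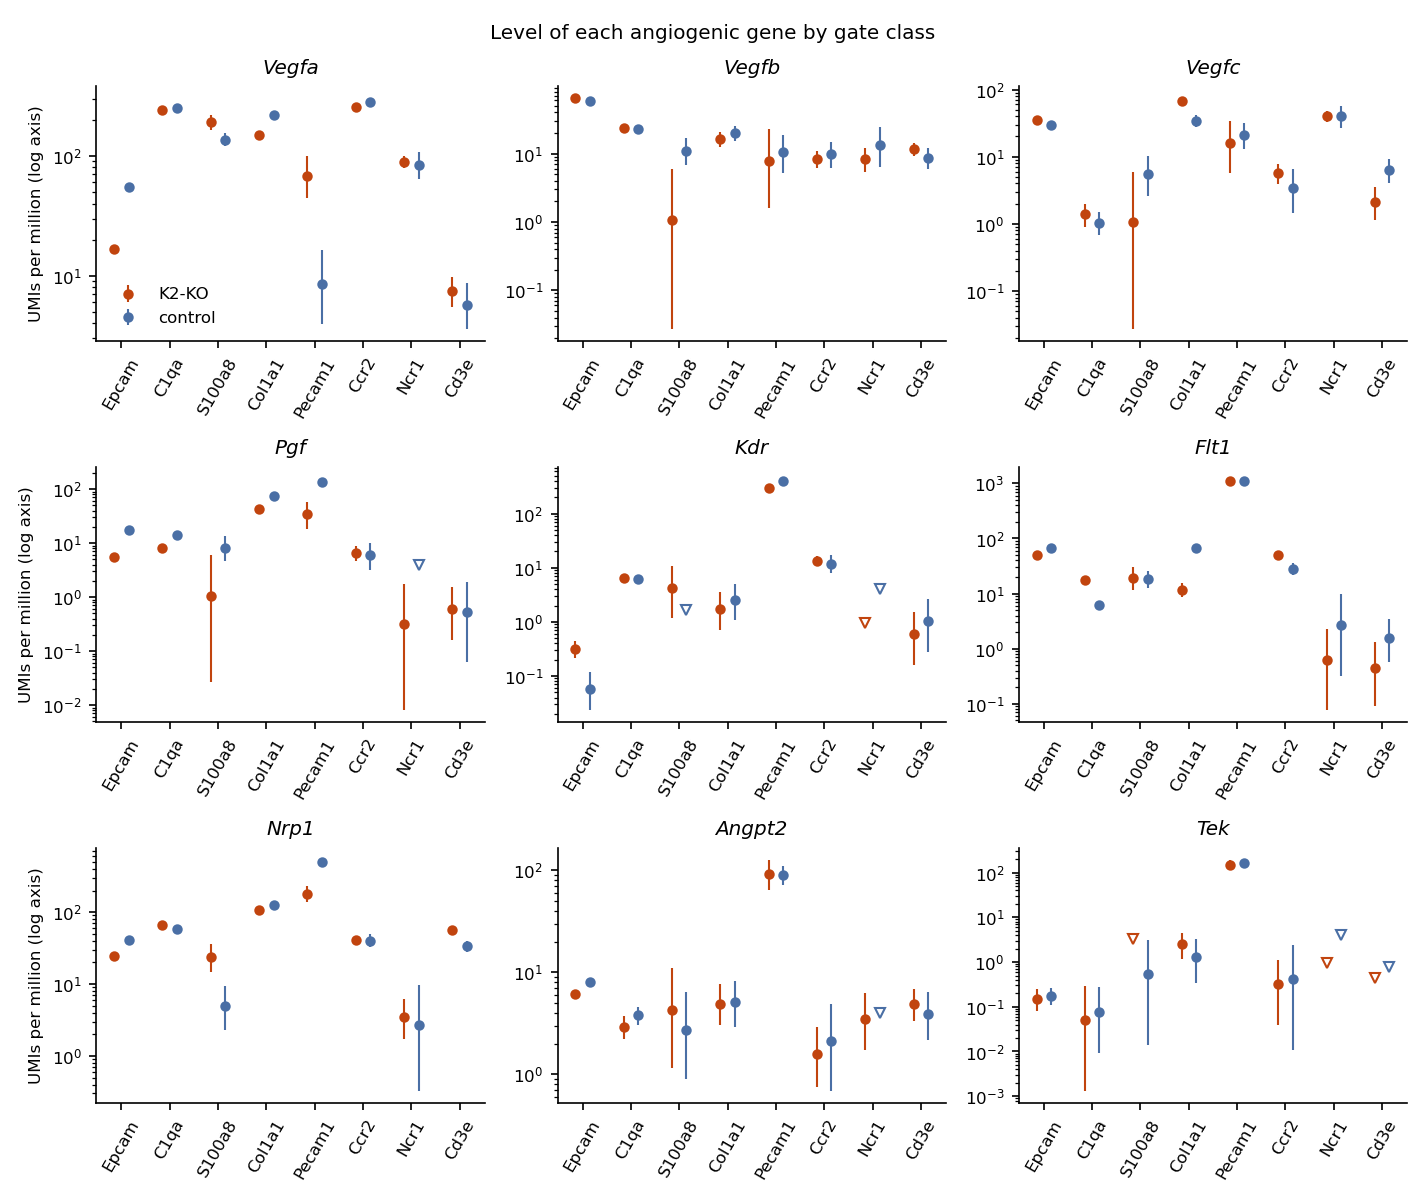
Level of each gene in 8 gate classes on log axes (CPM), with K2-KO left of control. Bars are exact Poisson intervals of 1 library each, and open triangles mark the level of 3 UMIs where none was found. Vegfa separates the libraries in the Epcam class (16.6 CPM in K2-KO and 54.8 CPM in control) and lies close in the C1qa class, while Kdr, Flt1 and Tek peak in the Pecam1 class.

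The sources of Vegfa differed between the libraries, with a smaller tumour part and a larger myeloid part in K2-KO. The Epcam class gave 15.7% of all Vegfa UMIs in K2-KO (15.04 to 16.5) and 37.0% in control (36.3 to 37.7), although it held 55.8% and 59.3% of all UMIs. The C1qa class gave 47.2% in K2-KO and 36.3% in control, and the Ccr2 class 16.2% and 3.77%. Barcodes without a gate gave 6.34% in K2-KO and 14.6% in control. These shares depend on class sizes, which the mCherry sort can set.

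Over whole libraries Vegfa stood at 58.7 CPM in K2-KO (57.5 to 59.8) and 87.9 CPM in control (86.6 to 89.2), a difference of -29.2 CPM. The Epcam class accounted for -23.3 of it, the barcodes without a gate for -9.10 and the C1qa class for -4.20. The Ccr2 class, with 551 K2-KO and 254 control barcodes, went the other way by 6.22 CPM.

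**Figure D2:**
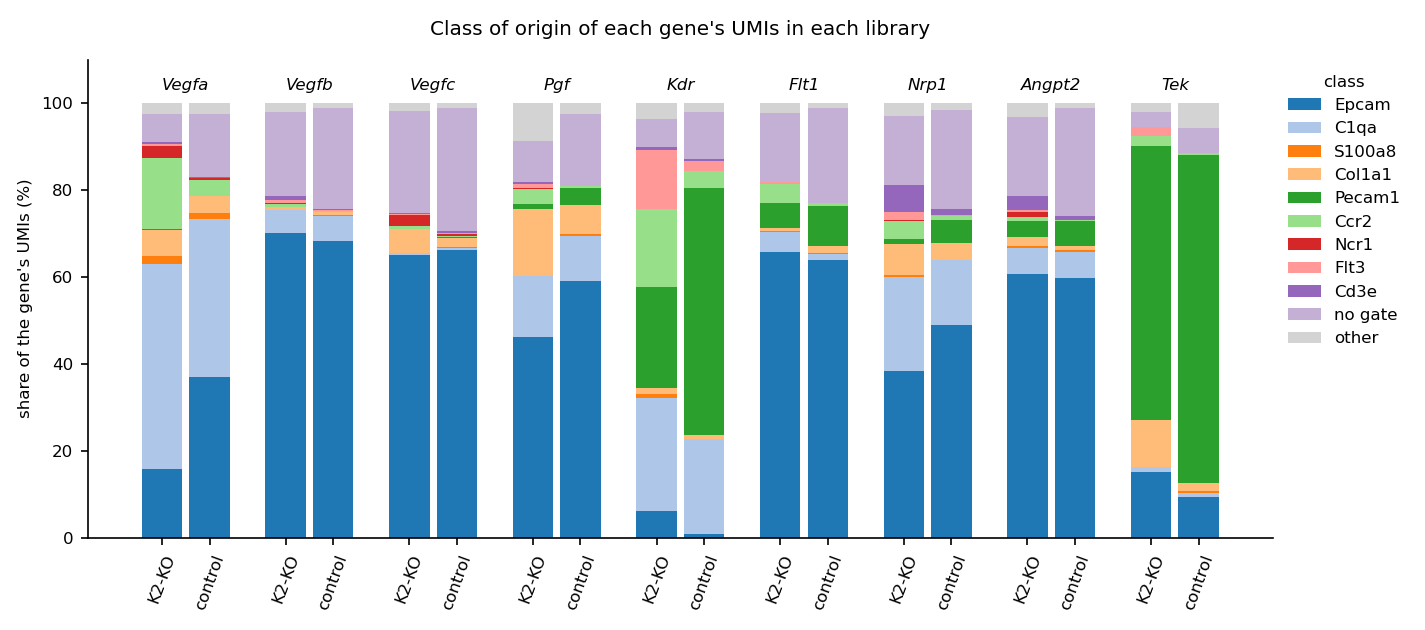
Share of each gene's UMIs (%) that came from each class, with the K2-KO bar left of the control bar for each gene. The Epcam part of Vegfa is 15.7% in K2-KO and 37.0% in control, while Vegfb, Vegfc and Flt1 came mostly from the Epcam class in both libraries. That class held 55.8% of all UMIs in K2-KO and 59.3% in control.

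Low oxygen induces Vegfa, so its level was read across the quartiles of the summed level of 25 measured hypoxia-regulated genes, with Vegfa not among them. In Epcam barcodes Vegfa was lower in K2-KO within every quartile. The K2-KO levels were 19.8, 12.4, 11.2 and 25.3 CPM from the lowest to the highest quartile, and the control levels 40.6, 37.7, 47.3 and 95.3 CPM. The log2 ratios were -1.03, -1.61, -2.08 and -1.91, and none of their intervals reached 0. The quartile bounds are places on a range, not cell types: 398, 423 and 222 Epcam barcodes lay within 5% of the 3 bounds.

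In C1qa barcodes Vegfa climbed with the hypoxia list in both libraries. It stood at 97.8, 199, 281 and 369.9 CPM in K2-KO and at 157, 232, 274 and 309.9 CPM in control. K2-KO was lower in the lowest quartile (log2 ratio -0.69, -0.87 to -0.51) and higher in the highest (0.26, 0.16 to 0.35), so the near-equal class totals cover differences of opposite sign. In the S100a8 class the highest quartile held 534 CPM in K2-KO and 235 CPM in control, but on 16 K2-KO and 175 control barcodes.

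The hypoxia list itself stood slightly lower in K2-KO tumour cells, relative to all genes. Of its 25 members with at least 50 UMIs in the Epcam class, 0 were at least 1.5-fold higher in K2-KO and 2 at least 1.5-fold lower, where 16.8% of 15336 such genes were higher and 5.05% lower. Their median log2 ratio was -0.17, against 0.11 over all those genes. The collagen hydroxylase gene P4ha2 stood at 8.58 CPM in K2-KO and 15.1 CPM in control (log2 ratio -0.81), and the glycolytic regulator Pfkfb4 at 8.09 and 13.6 CPM (-0.75). The carbonic anhydrase gene Car9 stood at 58.5 CPM in K2-KO and 46.8 CPM in control (0.32). Hif1a, which encodes the oxygen-regulated subunit of the hypoxia factor, stood at 107 CPM in K2-KO and 109 CPM in control (-0.02, -0.05 to 0.02).

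**Figure D3:**
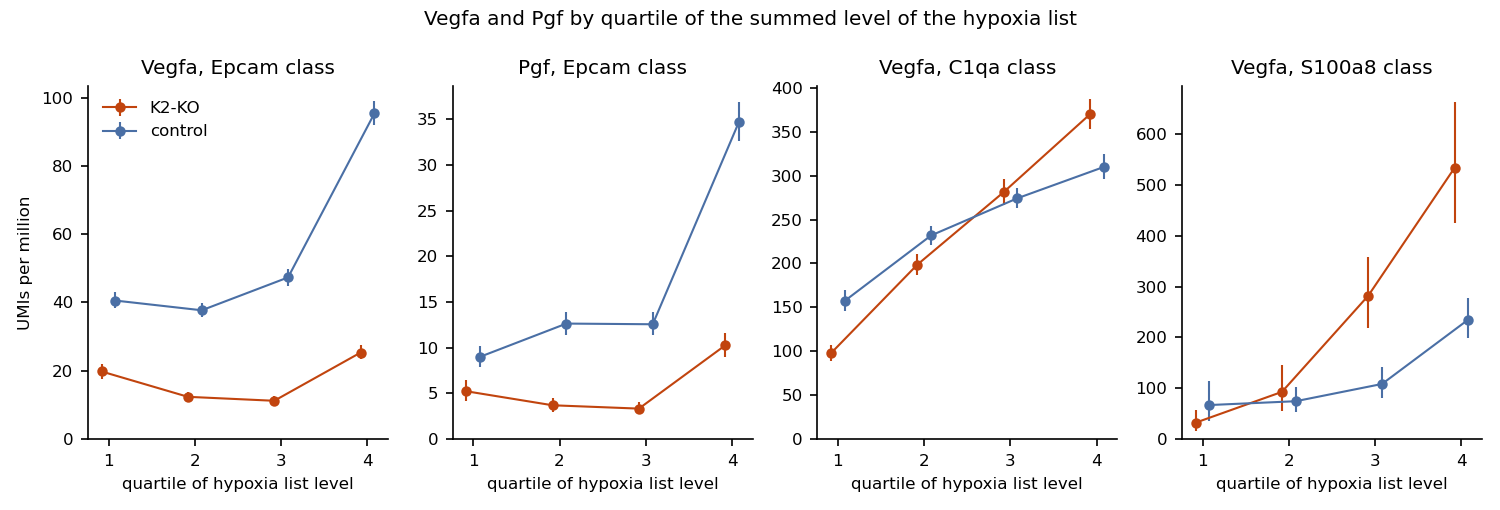
Vegfa and Pgf (CPM) by quartile of the hypoxia list's summed level, from low to high, in the classes named above each panel. Points are 1 library each with exact Poisson intervals. In the Epcam class both genes are lower in K2-KO in all 4 quartiles, and in the C1qa class the Vegfa lines cross.

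Pgf, the placental growth factor that binds Flt1, followed Vegfa in the tumour cells at a lower level. In the Epcam class it stood at 5.51 CPM in K2-KO (5.05 to 6.002) and 17.1 CPM in control (16.4 to 17.9), a log2 ratio of -1.63 (-1.78 to -1.50). It was lower in K2-KO in each hypoxia quartile, with levels of 5.23, 3.70, 3.33 and 10.3 CPM in K2-KO and 9.002, 12.6, 12.6 and 34.7 CPM in control. T cells held 4 and 2 Pgf UMIs in all, so its background was low in both libraries.

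Pgf was also lower in K2-KO in the C1qa, Col1a1 and Pecam1 classes, and not in Ccr2 monocytes, which held 6.47 CPM in K2-KO and 5.91 CPM in control (log2 ratio 0.13, -0.77 to 1.12). The C1qa class held 8.17 CPM in K2-KO and 14.1 CPM in control (log2 ratio -0.79, -1.07 to -0.52). This difference sat in barcodes without Ccr2, at 10.0 CPM in K2-KO and 31.3 CPM in control, whereas those with Ccr2 held 7.70 and 8.91 CPM. Fibroblasts held 43.3 CPM in K2-KO and 74.1 CPM in control (-0.77, -1.07 to -0.49), with 21.1% and 34.0% of the UMIs in 1 barcode. In the Pecam1 class Pgf stood at 34.1 CPM in K2-KO and 132 CPM in control (-1.96), but 12 of the 13 K2-KO UMIs came from 1 barcode.

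Vegfb, a ligand of Flt1, lay close in the libraries. In the Epcam class it stood at 64.2 CPM in K2-KO (62.6 to 65.9) and 57.9 CPM in control (56.6 to 59.3), a log2 ratio of 0.15 (0.10 to 0.20). The tumour class gave 70.1% of its UMIs in K2-KO and 68.3% in control, beside 55.8% and 59.3% of all UMIs. Macrophages held 23.5 CPM in K2-KO and 22.6 CPM in control.

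Most Vegfc UMIs likewise came from the tumour class, and the Vegfc level was higher in K2-KO fibroblasts. The Epcam class gave 65.0% of the Vegfc UMIs in K2-KO and 66.2% in control, beside 55.8% and 59.3% of all UMIs. By level it ranked only 4th among the classes compared in each library, with an interval that overlapped that of the class above. The Epcam class held 34.7 CPM in K2-KO (33.5 to 35.9) and 29.3 CPM in control (28.3 to 30.3), a log2 ratio of 0.24 (0.17 to 0.31). Fibroblasts held 67.3 CPM in K2-KO (59.6 to 75.8) and 34.2 CPM in control (28.0 to 41.3), a log2 ratio of 0.98 (0.65 to 1.31), with 63.1% and 36.4% of barcodes carrying a UMI where median depths were 36912 and 25970.5 UMIs. T cells had a Vegfc UMI in 1.10% of K2-KO and 1.32% of control barcodes. After thinning to 1000 UMIs, the shares of fibroblast barcodes with a Vegfc UMI were 4.00% in K2-KO (1.10 to 9.93) and 3.70% in control (1.02 to 9.21), so the difference was not detectable in shares at that depth. In macrophages Vegfc was close to absent, at 27 UMIs in each library.

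**Figure D4:**
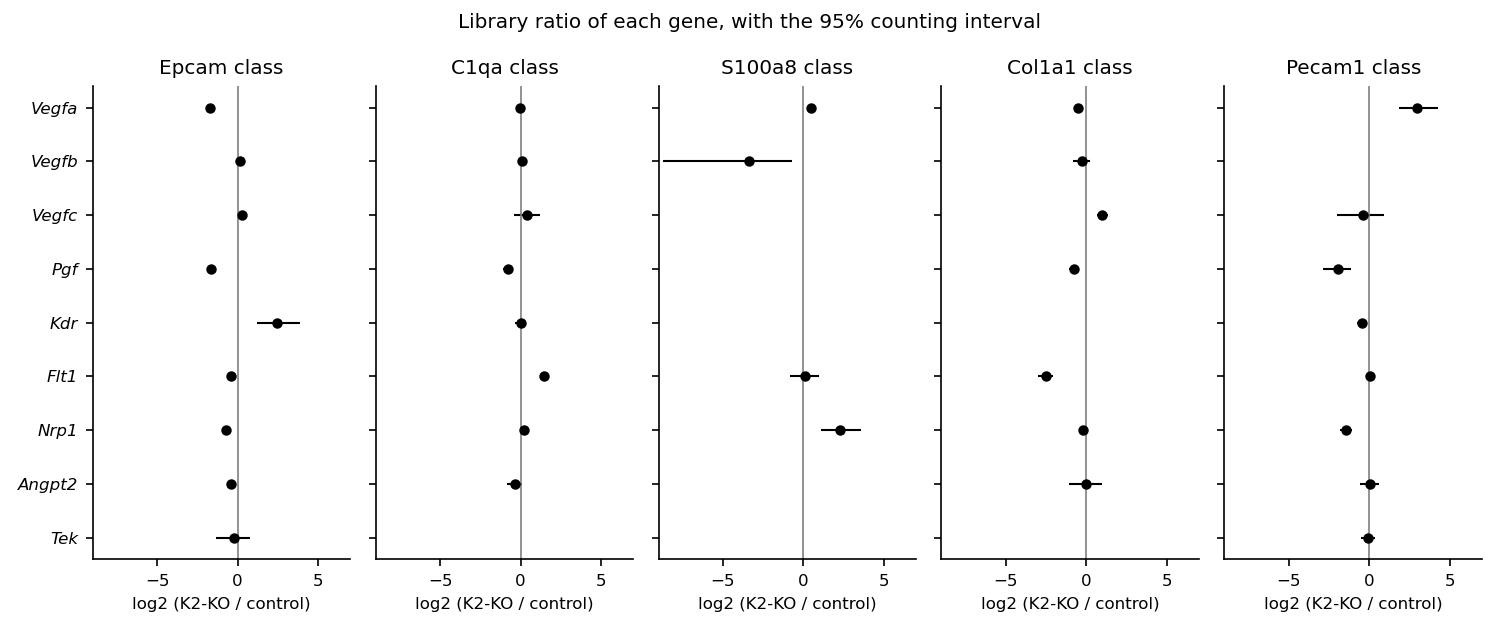
Log2 ratio of K2-KO over control for each gene in the 5 main classes, with exact 95% counting intervals. Ratios are drawn where both libraries together held at least 20 UMIs. Vegfa and Pgf lie left of 0 in the Epcam class (-1.73 and -1.63), Vegfb and Vegfc just right of it.

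Kdr was highest in the endothelium and lay in few barcodes. The Pecam1 class held 291 CPM in K2-KO (239 to 350) and 403 CPM in control (365 to 443), a log2 ratio of -0.47 (-0.79 to -0.17). In the 21 K2-KO and 38 control barcodes with Cdh5 the levels were 356 and 430 CPM (-0.27, -0.59 to 0.03), and the interval reached 0. Kdr was also present at a low level in macrophages, with 6.33 CPM in K2-KO and 6.25 CPM in control, and in Ccr2 monocytes, with 13.6 and 11.8 CPM. The Pecam1 class gave 23.2% of the Kdr UMIs in K2-KO and 56.8% in control, beside 0.223% and 0.517% of all UMIs. The C1qa class gave 25.9% of them in K2-KO and 21.7% in control, and the Ccr2 class 18.0% and 3.76%. The Epcam class held 30 Kdr UMIs in K2-KO, 73.3% of them in 1 barcode, and 7 in control.

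Flt1 was highest in endothelium, where the libraries did not separate over the whole Pecam1 class. The Pecam1 class held 1108 CPM in K2-KO (1005 to 1219) and 1091 CPM in control (1029 to 1156). In its barcodes with Cdh5 Flt1 was slightly higher in K2-KO, at 1358 CPM against 1164 CPM (log2 ratio 0.22, 0.06 to 0.38). However, 1 barcode held 31.2% of the class's Flt1 UMIs in K2-KO and 1 barcode 13.4% in control. Most Flt1 UMIs nevertheless came from tumour cells, at 65.7% in K2-KO and 63.9% in control, beside 55.8% and 59.3% of all UMIs. The Epcam class held 50.4 CPM in K2-KO and 66.0 CPM in control (log2 ratio -0.39, -0.44 to -0.34). In Epcam barcodes without Top2a the levels were 64.3 and 64.6 CPM (-0.01, -0.10 to 0.09), so the lower K2-KO value lay in the 1255 K2-KO and 1380 control barcodes with Top2a.

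In macrophages and Ccr2 monocytes Flt1 was higher in K2-KO. The C1qa class held 17.7 CPM in K2-KO (15.9 to 19.6) and 6.33 CPM in control (5.40 to 7.38), a log2 ratio of 1.48 (1.21 to 1.76), and the Ccr2 class 51.0 and 28.3 CPM (0.85, 0.47 to 1.25). Monocyte markers also stood higher in K2-KO C1qa barcodes, as given above for Vegfa. The part of these markers in the Flt1 value was not tested. In C1qa barcodes with a Ccr2 UMI Flt1 stood at 20.4 CPM in K2-KO and 6.84 CPM in control (1.58, 1.28 to 1.88). These levels rest on 318 K2-KO and 136 control UMIs. In C1qa barcodes with no Ccr2 UMI Flt1 stood at 7.02 CPM in K2-KO and 4.64 CPM in control (0.60, -0.21 to 1.41), with 28 UMIs in each library. In the neutrophil gate Flt1 stood at 19.2 CPM in K2-KO and 18.1 CPM in control (0.08, -0.83 to 0.95). In that gate 1 barcode held 38.9% of the Flt1 UMIs in K2-KO and 1 barcode 54.5% in control. Without Csf1r the gate held 2 Flt1 UMIs in K2-KO and 31 in control. The epithelial markers of those barcodes are given above for Vegfa, and their part was not tested. The Col1a1 class went the other way, with 11.6 CPM in K2-KO and 67.1 CPM in control (-2.53, -3.02 to -2.07), where 1 barcode held 27.7% and 28.1% of the UMIs. The lower pericyte markers of that class, 5 genes with none at 0, are given above for Vegfa, and their part in the value was not tested.

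Nrp1 was spread over more classes than the other receptors. The Epcam class held 24.4 CPM in K2-KO (23.4 to 25.4) and 40.9 CPM in control (39.7 to 42.0), a log2 ratio of -0.75 (-0.82 to -0.67). By hypoxia quartile the ratio was -0.87, -0.74, -0.74 and -0.10, and only in the highest quartile did the interval reach 0. Macrophages held 66.8 CPM in K2-KO and 58.5 CPM in control (0.19, 0.08 to 0.30), and fibroblasts 107 and 125 CPM (-0.23, -0.43 to -0.03).

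Endothelial Nrp1 was lower in K2-KO, at 181 CPM (141 to 229) against 495 CPM in control (454 to 540), a log2 ratio of -1.45 (-1.84 to -1.09). In barcodes with Cdh5 the levels were 221 CPM in K2-KO and 526 CPM in control (-1.25, -1.63 to -0.88). There, 52.4% of K2-KO and 86.8% of control barcodes carried a Nrp1 UMI, shares that are not matched for depth. In the whole Pecam1 class median depths were 8695 UMIs in K2-KO and 14018.5 UMIs in control. After thinning as for Vegfa, its Nrp1 shares were 13.3% in K2-KO (3.76 to 30.7) and 26.9% in control (15.6 to 41.0). These intervals overlapped, so the difference was not detectable in shares at that depth.

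Angpt2 and Tek did not separate the libraries in endothelium. Angpt2 in the Pecam1 class stood at 91.7 CPM in K2-KO (63.9 to 128) and 89.6 CPM in control (72.4 to 110), with 42.9% of the K2-KO UMIs in 1 barcode. Levels elsewhere were low, such as 6.13 CPM in K2-KO and 8.05 CPM in control in the Epcam class and 4.90 and 3.90 CPM in T cells. Angpt2 lies on chromosome 8 (18690263 to 18741562, GRCm38) opposite the strand of Mcph1, and whether counting used strand is not given in the sources used here, so these low values are uncertain. Tek in the Pecam1 class stood at 152 CPM in K2-KO (115 to 196) and 161 CPM in control (138 to 187), a log2 ratio of -0.08 (-0.54 to 0.35). That class gave 63.0% of the Tek UMIs in K2-KO and 75.4% in control, beside 0.223% and 0.517% of all UMIs. T cells held no Tek UMI in either library.

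Counted over classes, the members did not share 1 direction. In the Epcam class 0 of the 7 members with at least 50 UMIs were at least 1.5-fold higher and 3 were lower (Vegfa, Pgf and Nrp1), beside 16.8% and 5.05% of all genes. Their median log2 ratio was -0.39, against 0.11 for all genes. In the C1qa class 1 of 8 was higher (Flt1) and 1 lower (Pgf), where 8.27% and 1.67% of 12384 genes were. In the Col1a1 class 1 of 6 was higher (Vegfc) and 2 lower (Pgf and Flt1), beside 8.88% and 5.05% of 9601 genes. In the Pecam1 class 0 of 6 were higher and 2 lower (Pgf and Nrp1), where 13.4% and 18.6% of 4912 genes were, a share near that of all genes for so few members. In the S100a8 class 0 of 2 passed in either direction, beside 19% and 16.2% of 5377 genes. Over whole libraries 0 of 9 were higher and 2 lower (Pgf and Tek), beside 18.2% and 3.95% of 17814 genes.

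Among 20 other angiogenic ligands and stimuli, a list that also held semaphorin genes and the protease gene Mmp9, the tumour cells showed values in both directions. Of 17 with at least 50 UMIs in the Epcam class, 6 were at least 1.5-fold higher and 4 lower, beside 16.8% and 5.05% of all genes. The matrix protease gene Mmp9 stood at 54.6 CPM in K2-KO and 127 CPM in control (log2 ratio -1.22). Angiogenin (Ang), under the minimum for these counts, held 7 UMIs in K2-KO and 21 in control. On the other side the semaphorin Sema3c stood at 2.24 CPM in K2-KO and 0.274 CPM in control (3.03, 2.50 to 3.61). Vegfd, a further lymphatic ligand, held 71 UMIs in K2-KO and 25 in control (1.84, 1.17 to 2.56). Of 12 in the C1qa class 1 was higher and 1 lower, beside 8.27% and 1.67% of all genes. The vasodilator adrenomedullin (Adm) stood at 1.99 CPM in K2-KO and 3.59 CPM in control.

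In the endothelium, vessel genes stood on both sides, with Esm1, Apln and Unc5b lower in K2-KO and Calcrl and S1pr1 higher. Of 24 vessel receptor and signalling genes with at least 50 UMIs in the Pecam1 class, 3 were higher by 1.5-fold or more and 6 lower, near the 13.4% and 18.6% of all genes. In barcodes with Cdh5, 5 of 24 were higher and 5 lower, beside 13.6% and 18.8% of 4490 genes. Over the whole class their median log2 ratio was -0.27, against -0.07 for all genes. Esm1, a secreted product of endothelial tip cells, held 4 UMIs in K2-KO, all in 1 barcode, and 155 in control, 45.2% of them in 1 barcode. Restricted to barcodes with Cdh5 it held 0 and 155 UMIs. The tip cell ligand Apln stood at 31.4 CPM in K2-KO and 173 CPM in control (-2.46, -3.44 to -1.62), and the netrin receptor Unc5b at 15.7 and 57.2 CPM (-1.86). The adrenomedullin receptor Calcrl stood at 306 CPM in K2-KO and 167 CPM in control (0.88, 0.53 to 1.22), and the sphingosine phosphate receptor S1pr1 at 474 and 299 CPM (0.66, 0.39 to 0.93).

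Hypoxia-regulated genes were lower in the same class: 10 of 18 were at least 1.5-fold lower in K2-KO and 2 higher, beside 18.6% and 13.4% of all genes, with a median of -0.78. The glycolytic gene Eno1 stood at 155 CPM in K2-KO and 453 CPM in control (-1.55). Angiogenesis inhibitors went the other way, with 6 of 9 at least 1.5-fold higher and 0 lower, beside 13.4% and 18.6% of all genes. Markers of some other cells also stood higher in the K2-KO Pecam1 class. Macrophage markers summed to 419 CPM in K2-KO and 220.1 CPM in control (1 of 7 at 0 in each). Mast or basophil markers summed to 262 and 52.4 CPM, and dendritic markers to 126 and 41.0 CPM (4 of 6 at 0 in each). T cell markers went the other way, at 36.7 and 86.7 CPM, as did pericyte markers, at 28.8 and 46.7 CPM. In barcodes with Cdh5, macrophage markers summed to 228 CPM in K2-KO and 218 CPM in control, and dendritic markers to 38.5 and 43.7 CPM. Mast or basophil markers still stood at 202 and 45.7 CPM there, and their part was not tested. Restricted to these barcodes, the inhibitors again counted 6 of 9 higher and 0 lower. The hypoxia-regulated genes counted 1 of 16 higher and 10 lower, beside 13.6% and 18.8% of all genes for both lists. The metalloproteinase inhibitor Timp3 stood at 967 CPM in K2-KO and 300.1 CPM in control (1.69, 1.47 to 1.91), with 30.6% and 16.2% in 1 barcode. The interferon-induced chemokine Cxcl9 stood at 2641 and 666 CPM, with 65.6% and 38.3% in 1 barcode.

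In the neutrophil gate 13 of 22 hypoxia-regulated genes were at least 1.5-fold lower in K2-KO and 0 higher, beside 16.2% and 19% of all genes. The gene with the lowest ratio was the collagen-modifying Plod2, with 3 UMIs in K2-KO and 54 in control. The higher macrophage markers of that gate are given above. Its epithelial markers went the other way, at 108 CPM in K2-KO and 453 CPM in control over 6 genes. In its barcodes without a Csf1r UMI, 18 of 21 were lower and 0 higher, beside 26.4% and 19.4% of 4373 genes. Epithelial markers there summed to 118 CPM in K2-KO and 516 CPM in control. The part of epithelial RNA in these hypoxia counts was not tested. In the Col1a1 class 3 of 24 hypoxia-regulated genes were lower and 0 higher, beside 5.05% and 8.88% of all genes, with the mitophagy gene Bnip3 at 54.0 CPM in K2-KO and 116 CPM in control. In the C1qa class 1 of 25 was lower and 0 higher, beside 1.67% and 8.27% of all genes. It was the lipid droplet gene Hilpda at 207 CPM in K2-KO and 327 CPM in control (-0.66, -0.71 to -0.60).

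The shares of all genes that were higher and lower were 16.8% and 5.05% in the Epcam class, 8.27% and 1.67% in the C1qa class, 19% and 16.2% in the S100a8 class and 8.88% and 5.05% in the Col1a1 class. Beside these, vessel receptor and signalling genes counted 4 of 15 higher and 2 lower in the Epcam class, 3 of 15 and 1 in the C1qa class, 1 of 3 and 1 in the S100a8 class, and 4 of 13 and 0 in the Col1a1 class. Notch1, a receptor of vessel patterning, stood at 7.93 CPM in K2-KO Epcam barcodes and 14.2 CPM in control ones (-0.84). Angiogenesis inhibitors counted 2 of 11 higher and 3 lower in the Epcam class, 4 of 10 and 1 in the C1qa class, 3 of 4 and 1 in the S100a8 class, and 3 of 10 and 0 in the Col1a1 class. The matrix protein gene Sparc stood at 90.5 CPM in K2-KO and 173 CPM in control in the Epcam class (-0.94), and the chemokine Pf4 at 181 and 348 CPM in the C1qa class (-0.94).

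Other angiogenic ligands and stimuli counted 1 of 4 higher and 2 lower in the S100a8 class (19% and 16.2% of all genes). They counted 2 of 15 and 5 in the Col1a1 class (8.88% and 5.05%), and 1 of 9 and 6 in the Pecam1 class (13.4% and 18.6%). Fibroblast Cxcl12, a chemokine, stood at 489 CPM in K2-KO and 233 CPM in control (1.07, 0.94 to 1.19). Genes of hypoxia sensing, such as Hif1a and Epas1, counted 1 of 6 higher in the Epcam class (16.8% of all genes) and 2 of 3 in the Pecam1 class (13.4%), with 0 lower in either and none called in the C1qa, S100a8 and Col1a1 classes.

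**Figure D5:**
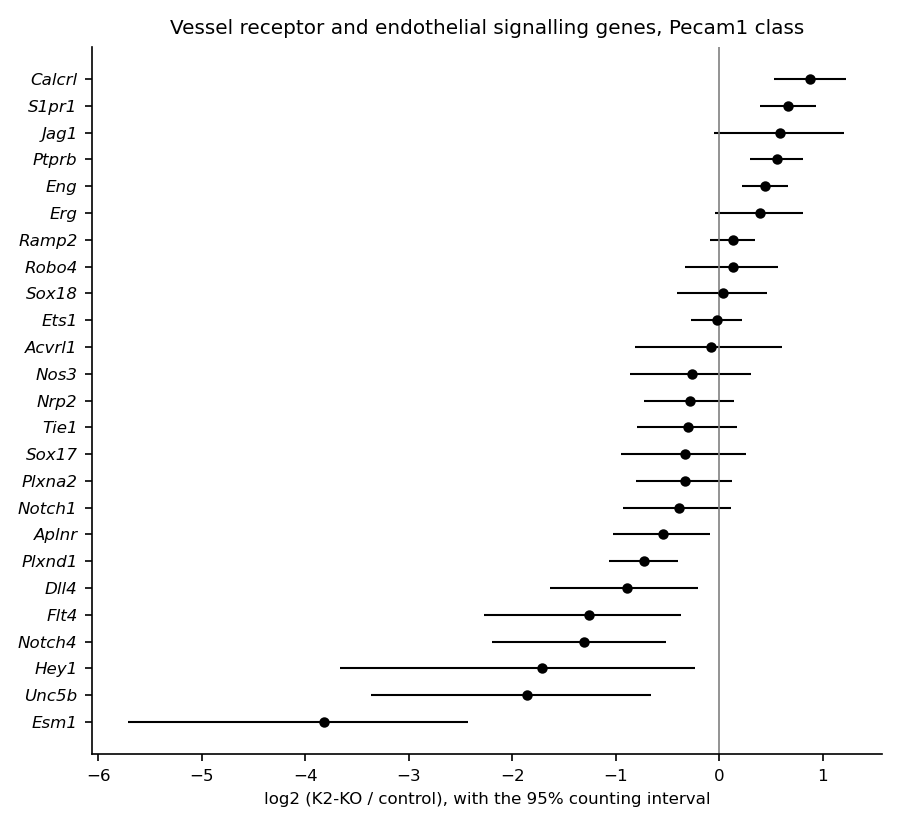
Log2 ratio of K2-KO over control for vessel receptor and endothelial signalling genes with at least 20 UMIs over both libraries in the Pecam1 class (32 K2-KO and 52 control barcodes), with exact 95% counting intervals. Esm1 lies farthest left at -3.82 and Calcrl farthest right at 0.88.

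The genes most like Vegfa, Kdr and Nrp1 in pattern were ranked by Pearson correlation of log2(CPM + 1) over 18 points, which are 9 classes in 2 libraries and so share library and depth. For Vegfa, among 14521 genes, these were F630040K05Rik (0.86), Usp2 (0.83), Dtnbp1 (0.82), Xdh (0.81) and Egr2 (0.80). For Kdr they were Vwf (0.95), Gnai2 (0.94), Pcdh17 (0.94), Cdh5 (0.92) and Cd36 (0.91). For Nrp1 they were Rnf215 (0.92), Mrpl17 (0.89), Arhgap31 (0.88), Kctd17 (0.87) and Iigp1 (0.87).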

How the data were processed

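The deposited matrix held raw UMI counts per gene and barcode, which the authors made with Cell Ranger 2.1.1 on mm10 per the submitters' processing notes, whereas the matrix header names cellranger 6.0.1, so the version is uncertain. Cell calling preceded deposit. The barcode suffix gives the library, and its match to control and K2-KO rests on the library number in the labels alone. Barcodes needed at least 500 UMIs, 200 genes and at most 20% mitochondrial UMIs, and Scrublet (scanpy 1.11.5) removed 201 K2-KO (2.89%) and 217 control (2.80%) doublets per library. A gate needed 2 UMIs and 100 CPM in the barcode. UMIs were summed per class and library and given as CPM with exact Poisson intervals, shares with exact Clopper-Pearson intervals, and log2 ratios (K2-KO over control) with exact conditional binomial intervals at 20 or more UMIs in all. The deposited libraries held 180774106 K2-KO and 214163620 control UMIs. Ratios were tested on simulated counts. Gene positions came from GENCODE M21 (99.6% of IDs matched) and promoter windows from RefSeq. The members, gates and gene lists were chosen with earlier results of these data known. From each list the 2 highest and 2 lowest ratios per class could be named. Alternatives covered gates, filters, doublets, scaling, thinning (mean of 20 draws) and subsets. Scripts used scipy 1.17.1 for the intervals, numpy 2.4.6, pandas 2.3.3 and, for plots, matplotlib 3.10.9 under Python 3.11.15.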

Additional observations from a re-analysis of the deposited data

Results flagged for a closer look

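For 5 of the genes the log2 ratio of K2-KO over control had opposite signs in a pair of the 5 main classes, each with an interval that left out 0. These differences were not tested, since each group was 1 library. The Vegfa ratio was 4.72 higher in the Pecam1 class than in the Epcam class, and the Pecam1 ratio rests on 26 K2-KO and 9 control UMIs. That ratio of 2.99 was 1.07 in barcodes with Cdh5 (2 K2-KO and 3 control UMIs), 1.70 as a mean over barcodes and 1.83 thinned. The Vegfb ratio was 3.51 higher in the Epcam class than in the S100a8 class, where K2-KO held 1 UMI and control 20. The S100a8 ratio of -3.36 was -0.40 with barcodes of several gates reassigned, -0.58 as a mean over barcodes and -0.42 thinned. The Kdr ratio was 2.91 higher in the Epcam class than in the Pecam1 class, with 73.3% of the K2-KO Epcam UMIs in 1 barcode. The Flt1 ratio was 4.01 higher in the C1qa class than in the Col1a1 class, with 346 K2-KO and 164 control UMIs in the C1qa class and 47 and 210 in the Col1a1 class. The Nrp1 ratio was 3.70 higher in the S100a8 class than in the Pecam1 class. Of the 22 K2-KO Nrp1 UMIs in the S100a8 class, 63.6% lay in 1 barcode, and all 22 lay in barcodes with a Csf1r UMI.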

How the results depend on the processing

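No paired analysis was possible because each group is 1 library, and no replicate could be left out. The lower Vegfa of K2-KO Epcam barcodes kept its direction in 13 of 13 alternatives (log2 ratio -1.89 to -1.46): it was -1.49 with a gate of 300 CPM, -1.89 without gland barcodes, -1.46 without Top2a and -1.85 with Krt18 barcodes added. The Vegfa ratio of the whole library was -0.42 as a mean over barcodes and -0.39 thinned. That of the C1qa class was -0.19 by either of these and -0.20 without Ccr2. The Vegfa ratio of the S100a8 class turned negative with a gate of 300 CPM (-0.28), as a mean over barcodes (-0.13) and without Csf1r (-1.38), and was 0.16 thinned and 0.95 weighted over hypoxia quartiles. Nrp1 in the Epcam class was -0.61 as a mean over barcodes, -0.60 thinned and -0.53 without Top2a, and in the S100a8 class turned to -1.43 with a gate of 300 CPM. Kdr in the Pecam1 class was -3.002 with no condition on Ptprc, which lets leukocytes in, and Kdr over whole libraries turned to 0.13 as a mean over barcodes and 0.048 thinned. The Epcam share of Vegfa UMIs in K2-KO was 16.9%, 11.6% and 18.5% with gates of 30 or 300 CPM or Krt18 barcodes added, and in control 41.6%, 22.8% and 49.9%, or 35.9% with doublets kept. Apart from alternatives that change which barcodes or weights enter, the cause was not tested. Leaving out barcodes with Ccr2, with Csf1r or without Cdh5 (also for list counts) and adding Krt18 barcodes were chosen after seeing the data. Thinned and barcode-mean values carry no interval. Low counts limit Kdr, Tek and Angpt2, whose UMIs in the Pecam1 class all lay in the 21 K2-KO and 38 control barcodes with Cdh5.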

Other observations

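Nrp1 was also carried by T cells, at 56.3 CPM in K2-KO (50.8 to 62.3) and 33.5 CPM in control (28.0 to 39.8). In Cd3e barcodes with a UMI of Foxp3, the regulatory T cell factor, Nrp1 stood at 59.3 CPM in K2-KO and 86.7 CPM in control (log2 ratio -0.55, -1.03 to -0.05). In those without Foxp3 it stood at 55.0 CPM in K2-KO and 23.7 CPM in control (1.22, 0.84 to 1.60), so the higher T cell value of K2-KO lay in the barcodes without Foxp3. The split was chosen after seeing the data, and a missing Foxp3 UMI does not show that a cell lacks Foxp3.

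NK cells carried Vegfc at 39.6 CPM in K2-KO (33.0 to 47.2) and 40.0 CPM in control (27.0 to 57.1). Both intervals took in the Epcam level of the same library, and T cells held 2.08 CPM in K2-KO and 6.24 CPM in control. Flt3-gated dendritic cells carried Kdr at 18.5 CPM in K2-KO (14.2 to 23.6) and 19.6 CPM in control (11.4 to 31.4). Mast cell or basophil barcodes, 23 in K2-KO and 21 in control, held 27 and 4 Vegfc UMIs, with 48.1% of the K2-KO UMIs in 1 barcode.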
